A study of Rattus norvegicus with 20 samples.

Results

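Matrix remodelling genes were measured in red tibialis anterior (red TA), the oxidative part of a hindlimb muscle, of male rats that the protocol calls ZDF and the strain label Zucker, while the study sets lean controls apart from ZDF rats. The genes were 40 of the 14557 tested, taken by symbol as the matrix metalloproteinases (MMP, 17 genes), the ADAMTS proteases (9) and ADAMTS-like proteins (3), the tissue inhibitors of metalloproteinases (TIMP, 3), the lysyl oxidases (5), the lysyl hydroxylase Plod2 and the collagen prolyl hydroxylases P4ha1 and P4ha3. The ZDF strain carries a mutation of the leptin receptor gene, and animals homozygous for it grow obese and diabetic. Each of 4 groups had 5 arrays, 1 rat per array: rosiglitazone, a drug that activates PPARgamma, resveratrol, a plant polyphenol, obese rats kept on a stock diet for 6 weeks, and lean controls on standard chow. All groups were housed singly under a reversed light cycle and fed freely. The labels give no dose, duration or diet for the drugs, no age and no genotype for each treated rat, and the study describes the experiment as an intervention in diabetic rats, so the treated groups were set against the obese group.

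The extracellular matrix of muscle is built from collagens that are modified inside the cell, cut and cross-linked outside it, and later degraded. Prolyl hydroxylases stabilise the collagen triple helix, lysyl hydroxylases prepare sites for cross-links, and lysyl oxidases make the cross-links. MMPs and ADAMTS enzymes cut collagens and proteoglycans, and TIMPs block them. Most of these genes are transcribed in fibroblasts, vascular cells and adipocytes that lie between the muscle fibres, so in bulk muscle fewer cells of a type and less RNA per cell cannot be told apart.

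Values are on the log2 scale of RMA, in which 1 unit is a 2-fold difference. The median over all rows of an array lay between 2.46 and 2.55, and arrays of a group correlated between 0.980 and 0.987 over all genes tested. Of the 40 genes, 13 had a mean over all arrays below the lowest array median, 2 lay between the medians and 25 lay above the highest. Skeletal muscle as the tissue was borne out by fibre genes. Skeletal actin Acta1 lay between 10.66 and 10.88 and creatine kinase Ckm between 10.83 and 11.20 on all 20 arrays. These genes do not tell red from other muscle. The fast-fibre myosin gene Myh4 lay between 11.25 and 11.68 and the slow-fibre myosin gene Myh7 between 7.86 and 9.10. The red part of the label was not tested. Values of different genes come from different probes, so levels were compared only within a gene. The replicates are labelled biological, and the labels name no batch or array strip to test.

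Rosiglitazone muscle carried the called differences. Against lean controls, 3 of the 40 genes passed an adjusted p under 0.05 in limma: Timp4 and Lox were higher and Plod2 was lower. That is 7.5% of the genes, beside 3.50% of all genes tested. Against resveratrol, Adamts5 and Timp4 were higher, 5% of the genes beside 2.04% of all genes. Against obese rats, 0 of 40 passed, beside 1.94% of all genes, and the smallest adjusted p was 0.0569. With trend and robust moderation, or with only the brighter genes tested, Adamts5, Timp3 and Timp4 passed in that comparison. With an unadjusted p under 0.05, 9 of 40 genes (22.5%) differed between rosiglitazone and obese, beside 13.6% of all genes. The 3 comparisons share the rosiglitazone arrays, so their calls are not separate evidence.

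The other comparisons held no called gene of the set. Between obese and lean control, 0 of 40 passed, beside 0.00687% of all genes, and 6 of 40 (15%) had an unadjusted p under 0.05, beside 10.8%. Between resveratrol and obese, 0 of 40 passed, beside 0% of all genes, and 2 of 40 (5%) had an unadjusted p under 0.05, beside 7.41%. Between resveratrol and lean control, 0 of 40 passed, beside 0.0137% of all genes, and 6 of 40 (15%) had an unadjusted p under 0.05, beside 8.63%. The median log2 fold change of its genes was -0.01 for rosiglitazone against obese and -0.02 for resveratrol against obese, with 21 and 23 of 40 negative, beside all-gene medians of -0.0048 and 0.0016.

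**Figure D1:**
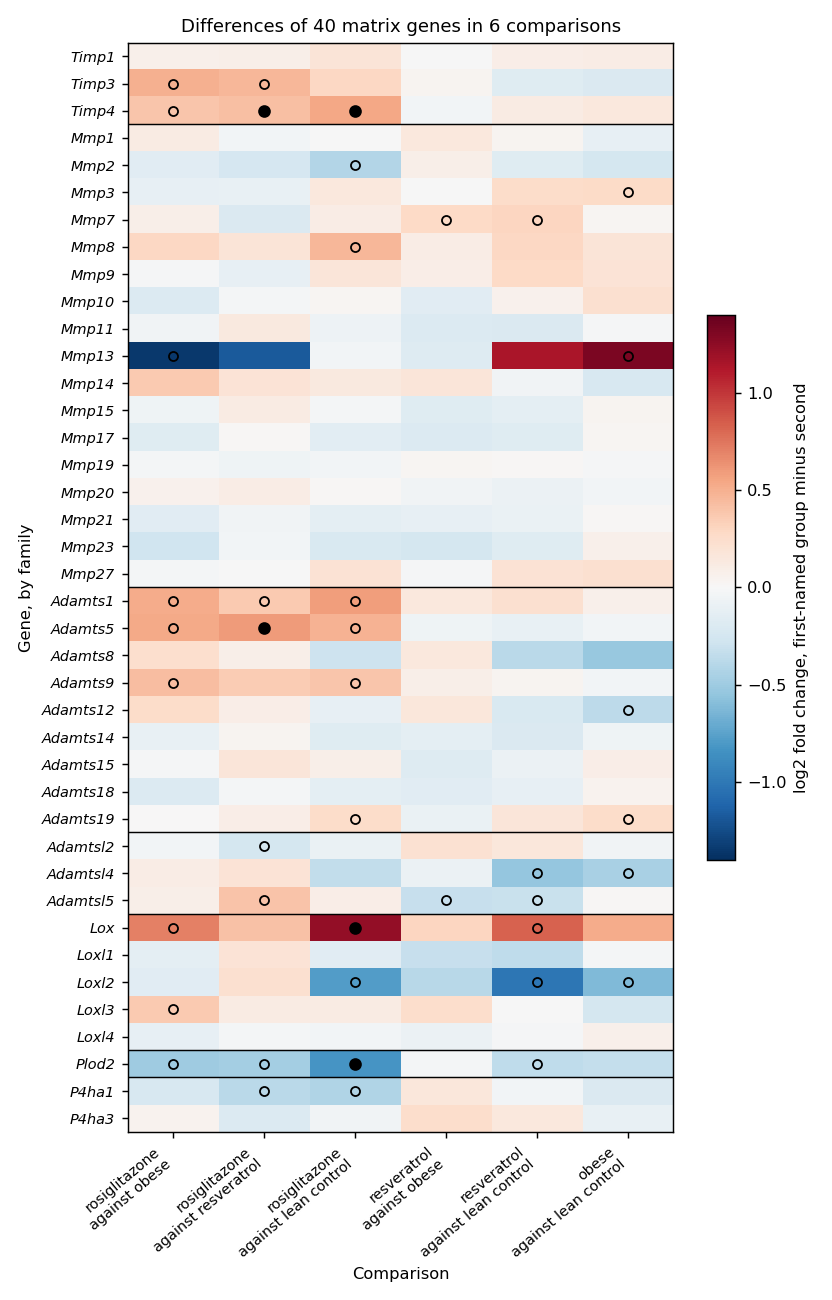
Log2 fold changes of the 40 genes (rows, grouped by family) in the 6 comparisons (columns), first-named group minus second, from blue (lower) to red (higher). Filled circles mark an adjusted p under 0.05 and open circles an unadjusted p under 0.05; the 5 filled circles are Timp4 (2 comparisons), Adamts5, Lox and Plod2, all in comparisons with rosiglitazone.

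Of the 3 inhibitors measured, 1 was called. Timp4, a TIMP best known from heart, had log2 values of 6.83, 6.78, 6.96, 6.50 and 6.88 on the rosiglitazone arrays, 6.47, 6.31, 6.28, 6.22 and 6.55 on resveratrol, 6.49, 6.56, 6.28, 6.37 and 6.30 on obese, and 6.13, 6.27, 6.48, 6.35 and 6.05 on lean control arrays. Every rosiglitazone array lay above every lean control array, the closest pair being 6.50 and 6.48. The lowest rosiglitazone array, replicate 4, lay within the obese and resveratrol ranges. Timp4 was 1.45-fold higher in rosiglitazone than in lean control (log2 fold change 0.54, SE 0.11, limma adjusted p = 0.0053). Against resveratrol the log2 fold change was 0.42 (SE 0.11, limma adjusted p = 0.0385), a call that was lost in 12 of 18 alternative analyses. Among them were leaving out rosiglitazone replicate 1 (limma adjusted p = 0.0842), 2 (0.0705), 3 (0.112) or 5 (0.0937) or resveratrol replicate 1 (0.0509), 2 (0.0972), 3 (0.0969) or 4 (0.0992). Against obese it was 0.39 (limma adjusted p = 0.0626), and without rosiglitazone replicate 4 it passed (0.0255).

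Timp3, the inhibitor that stays bound to the matrix and also blocks ADAMTS enzymes, had values of 7.64, 8.01, 7.41, 7.29 and 7.64 on rosiglitazone arrays, 7.24, 7.14, 7.24, 6.97 and 7.08 on resveratrol, 7.01, 7.22, 7.10, 6.74 and 7.41 on obese, and 7.49, 7.23, 7.10, 7.64 and 7.05 on lean control arrays. The rosiglitazone arrays lay above all resveratrol arrays and overlapped the obese and lean control arrays. Its log2 fold change was 0.50 against obese (SE 0.14, limma adjusted p = 0.0752, passing without rosiglitazone replicate 4 at 0.0464 or obese replicate 5 at 0.0444) and 0.46 against resveratrol (limma adjusted p = 0.111). Timp1, a secreted inhibitor of many MMPs, had values of 1.98, 2.54, 2.70, 2.74 and 3.18 on rosiglitazone arrays, 2.43, 2.49, 2.83, 2.44 and 2.56 on resveratrol, 2.14, 2.78, 2.98, 2.35 and 2.52 on obese, and 2.62, 2.27, 2.46, 2.05 and 2.84 on lean control arrays. Its 4 groups overlapped, with the highest and the lowest value both on rosiglitazone arrays. Timp2 was not analysed here.

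**Figure D2:**
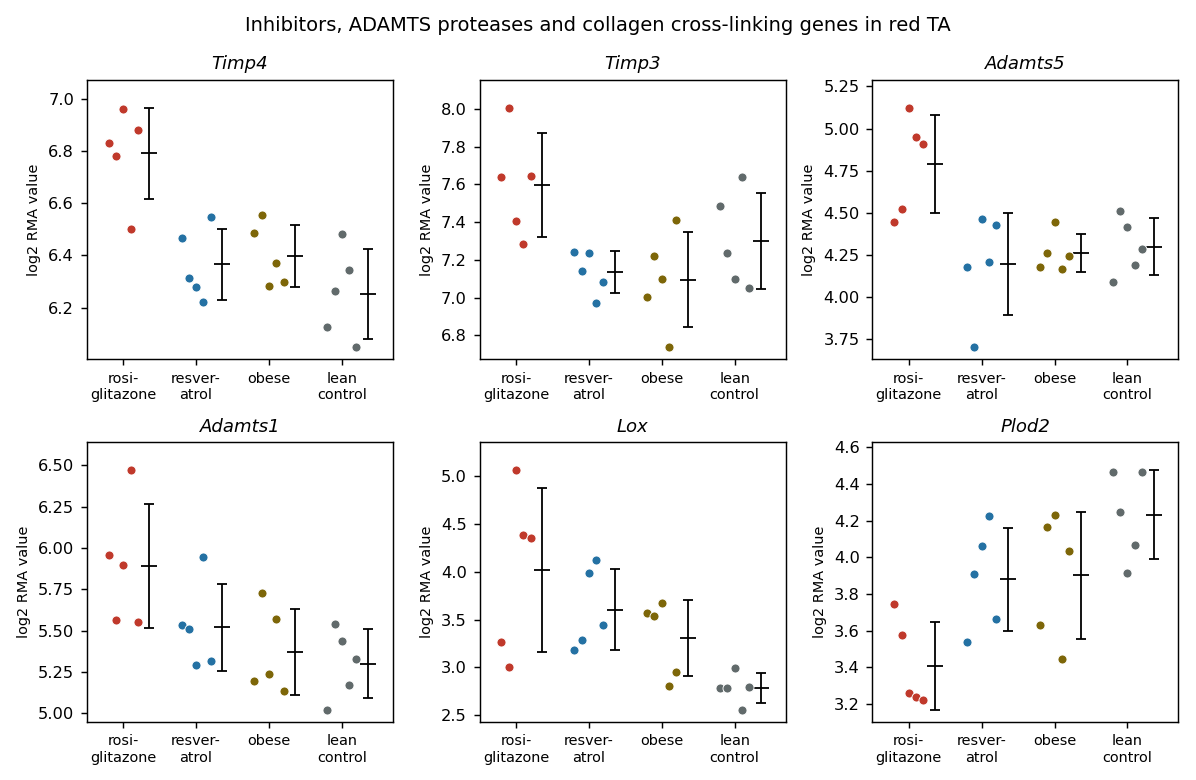
Log2 RMA values of Timp4, Timp3, Adamts5, Adamts1, Lox and Plod2 on each of the 5 arrays per group (points), with the mean and SD of the group (bars, n = 5). Every rosiglitazone array lies above every lean control array for Timp4, Adamts1 and Lox and below every one for Plod2. The closest pairs are 6.50 and 6.48 for Timp4, 5.55 and 5.54 for Adamts1 and 3.001 and 2.996 for Lox. The vertical axes differ between panels and do not start at 0.

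Among the proteases of proteoglycans, Adamts5, an aggrecanase that also cuts versican, had values of 4.45, 4.52, 5.13, 4.95 and 4.91 on rosiglitazone arrays, 4.18, 3.71, 4.46, 4.21 and 4.43 on resveratrol, 4.18, 4.26, 4.45, 4.17 and 4.24 on obese, and 4.09, 4.51, 4.42, 4.19 and 4.29 on lean control arrays. Rosiglitazone replicates 3, 4 and 5 stood clear of every other array, whereas replicates 1 and 2 lay near the top of the other groups. Adamts5 was 1.51-fold higher in rosiglitazone than in resveratrol (log2 fold change 0.59, SE 0.14, limma adjusted p = 0.0295). The call was lost in 8 of 18 alternatives, among them leaving out rosiglitazone replicate 3 (limma adjusted p = 0.0974), 4 (0.0724) or 5 (0.0741) or resveratrol replicate 1 (0.0566), 2 (0.0983) or 4 (0.0538). Against obese the log2 fold change was 0.53 (limma adjusted p = 0.0569, passing without rosiglitazone replicate 1 at 0.0307 or 2 at 0.0398), and against lean control 0.49 (limma adjusted p = 0.0595).

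Adamts1, another protease of aggrecan and versican, had values of 5.96, 5.56, 5.90, 6.47 and 5.55 on rosiglitazone arrays, 5.54, 5.51, 5.29, 5.94 and 5.32 on resveratrol, 5.19, 5.73, 5.24, 5.57 and 5.13 on obese, and 5.02, 5.54, 5.43, 5.17 and 5.33 on lean control arrays. The rosiglitazone arrays lay above all lean control arrays, the closest pair being 5.55 and 5.54. Against lean control the log2 fold change was 0.59 (SE 0.17, limma adjusted p = 0.0515). It passed the threshold in 7 of 18 alternatives, among them leaving out rosiglitazone replicate 2 (0.0343) or 5 (0.0390) or lean control replicate 2 (0.0446). Adamts9, of the same protease family and with a mean of 4.89 over all arrays, had a log2 fold change of 0.43 between rosiglitazone and obese (limma adjusted p = 0.273). Adamts4 was not analysed here.

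Adamts12 had the smallest p of the set between obese and lean control. Its values were 4.25, 4.25, 4.29, 4.09 and 4.72 on rosiglitazone arrays, 4.07, 4.34, 4.38, 4.30 and 4.02 on resveratrol, 4.19, 4.03, 3.88, 4.02 and 4.17 on obese, and 4.16, 4.84, 4.40, 4.32 and 4.44 on lean control arrays. The obese and lean control arrays met between 4.16 and 4.19, and the log2 fold change was -0.37 (SE 0.13, limma adjusted p = 0.285). The remaining ADAMTS genes, with means over all arrays of 3.87 for Adamts8, 2.11 for Adamts14, 2.55 for Adamts15, 2.23 for Adamts18 and 1.89 for Adamts19, were not called in any comparison. Adamts8 had 2 rows in the table, and its brighter one, used here, ran from 2.51 to 4.92 over the arrays, while the dimmer one ran from 2.47 to 3.40.

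The ADAMTS-like proteins lack the protease domain and bind matrix microfibrils. Adamtsl4 had values of 4.66, 4.89, 4.64, 4.56 and 4.53 on rosiglitazone arrays, 4.22, 4.59, 4.69, 4.26 and 4.52 on resveratrol, 4.45, 4.45, 4.09, 4.54 and 5.19 on obese, and 5.01, 5.25, 4.49, 5.52 and 4.74 on lean control arrays. The lean control values were mostly the higher ones, with a log2 fold change of -0.54 for resveratrol against lean control (SE 0.18, limma adjusted p = 0.369) and of -0.45 for obese against lean control (limma adjusted p = 0.365). Adamtsl5 had values of 4.20, 4.55, 4.87, 4.72 and 4.89 on rosiglitazone arrays, 4.44, 3.79, 4.26, 4.27 and 4.46 on resveratrol, 4.58, 4.46, 4.60, 4.38 and 4.82 on obese, and 4.51, 4.65, 4.67, 4.50 and 4.45 on lean control arrays. It had the smallest p of the set between resveratrol and obese, with a log2 fold change of -0.32 (SE 0.14, limma adjusted p = 0.648), and replicate 2 was the lowest resveratrol array. Adamtsl2, with a mean of 2.51, was not called in any comparison.

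In rosiglitazone muscle the cross-linking gene Lox was higher and the collagen hydroxylation gene Plod2 lower than in lean control, and neither was called against obese. By the study's description, rosiglitazone and lean control rats differ in obesity as well as in the drug, so this comparison cannot tell the parts of these apart. Lox, the enzyme that starts collagen and elastin cross-links, had values of 3.27, 3.001, 5.06, 4.39 and 4.35 on rosiglitazone arrays, 3.18, 3.29, 3.99, 4.12 and 3.44 on resveratrol, 3.57, 3.53, 3.68, 2.81 and 2.95 on obese, and 2.78, 2.79, 2.996, 2.56 and 2.80 on lean control arrays. Rosiglitazone replicates 3, 4 and 5 were the highest arrays of the study, and replicate 1 lay within the resveratrol and obese ranges. Rosiglitazone replicate 2 lay within the obese range and below all resveratrol arrays. At 3.001 it lay just above the highest lean control array, 2.996. The group means were 4.01 ± 0.86 in rosiglitazone, 3.60 ± 0.43 in resveratrol, 3.31 ± 0.40 in obese and 2.78 ± 0.16 in lean control (SD, n = 5 each).

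Lox was 2.35-fold higher in rosiglitazone than in lean control (log2 fold change 1.23, SE 0.29, limma adjusted p = 0.0170). The call was lost without rosiglitazone replicate 3 (limma adjusted p = 0.0543) or 5 (0.0521). Resveratrol and lean control arrays did not overlap either, yet the log2 fold change of 0.82 (SE 0.29) was not called (limma adjusted p = 0.390). Against obese, the log2 fold change of rosiglitazone was 0.71 (limma adjusted p = 0.268) and that of resveratrol 0.30 (95% interval from -0.30 to 0.90). Between rosiglitazone and resveratrol it was 0.41 (limma adjusted p = 0.602), and between obese and lean control it was 0.52 (limma adjusted p = 0.536).

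Plod2, the lysyl hydroxylase that acts on the ends of collagen chains, had values of 3.74, 3.58, 3.26, 3.24 and 3.22 on rosiglitazone arrays, 3.54, 3.91, 4.06, 4.22 and 3.66 on resveratrol, 3.63, 4.17, 4.23, 3.45 and 4.03 on obese, and 4.46, 4.25, 3.91, 4.07 and 4.47 on lean control arrays. All 5 rosiglitazone arrays lay below all lean control arrays, and replicates 3, 4 and 5, highest for Lox, were the lowest of the study. Plod2 was 1.77-fold lower in rosiglitazone than in lean control (log2 fold change -0.82, SE 0.17, limma adjusted p = 0.0053). The call for Plod2, like that for Timp4 in the same comparison, held in all 18 alternatives. For Plod2 it was -0.49 against obese (limma adjusted p = 0.150) and -0.47 against resveratrol (limma adjusted p = 0.177), whereas resveratrol against obese gave -0.02 (95% interval from -0.36 to 0.32). For obese against lean control, Plod2 had a log2 fold change of -0.33 (limma adjusted p = 0.483). Plod1 was not analysed here.

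P4ha1, a catalytic subunit of collagen prolyl hydroxylase, had values of 6.43, 6.24, 6.47, 6.44 and 6.10 on rosiglitazone arrays, 6.69, 6.53, 6.62, 7.37 and 6.39 on resveratrol, 6.86, 6.23, 6.49, 6.56 and 6.63 on obese, and 6.79, 6.71, 6.91, 6.66 and 6.72 on lean control arrays. Rosiglitazone lay below lean control on every array, with a log2 fold change of -0.42 (SE 0.15, limma adjusted p = 0.128). P4ha3, another catalytic subunit, had values of 2.97, 2.79, 2.84, 3.15 and 2.59 on rosiglitazone arrays, 2.73, 2.93, 3.42, 3.18 and 3.05 on resveratrol, 2.68, 2.9997, 2.92, 2.66 and 2.80 on obese, and 2.69, 2.79, 3.15, 2.85 and 3.11 on lean control arrays. Its groups overlapped, and resveratrol against obese gave a log2 fold change of 0.25 (limma adjusted p = 0.705). P4ha2 was not analysed here.

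The bases upstream of Plod2 and P4ha1 are shown because both genes are known targets of hypoxia-inducible factors. Both lay below every lean control array on all rosiglitazone arrays, although only Plod2 was called. In the windows below, taken from RefSeq (rat build GRCr8), the capitals mark the core of a hypoxia response element, ACGTG or GCGTG on either strand. Plod2 held 4 of them in the 250 bases before its start (chr8:101964068-101964317, plus strand). P4ha1 held 2 in the window from 150 to 71 bases before its start (chr20:27844896-27844975, plus strand). The P4ha1 window is shorter, at 80 bases, so these counts cannot be compared. The short motif stood in 36.7% of 33469 promoters and in 14 of the 29 promoters of the gene set that RefSeq holds. Among the 14 were also Adamts1, Timp3 and Adamts9, whose means were higher in rosiglitazone than in lean control. The match is a description of letters only.
Plod2: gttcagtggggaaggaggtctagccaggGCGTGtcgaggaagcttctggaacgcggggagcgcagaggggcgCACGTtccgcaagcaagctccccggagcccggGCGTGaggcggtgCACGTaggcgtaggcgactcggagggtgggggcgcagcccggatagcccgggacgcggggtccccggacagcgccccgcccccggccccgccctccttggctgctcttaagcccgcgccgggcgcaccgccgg
P4ha1: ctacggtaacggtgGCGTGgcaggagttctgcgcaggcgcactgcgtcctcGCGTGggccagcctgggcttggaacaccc

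A PPAR response element, spelled as the hexamer AGGNCA repeated after 1 base on either strand, was found in 0 of the 29 promoters, beside 0.368% of all promoters. These letters were searched in the 250 bases before the start only, and the promoters of Lox and Adamts5 were not searched here.

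None of the 4 other lysyl oxidase genes was called. Loxl2, which also cross-links collagen IV, had values of 1.86, 2.47, 3.17, 2.75 and 2.15 on rosiglitazone arrays, 1.77, 2.42, 2.60, 2.41 and 2.07 on resveratrol, 2.96, 2.45, 3.23, 1.83 and 2.73 on obese, and 3.44, 2.86, 3.47, 3.27 and 3.26 on lean control arrays. Lean control arrays were the high ones, and none of them overlapped the resveratrol arrays. Against lean control the log2 fold change was -0.78 for rosiglitazone (limma adjusted p = 0.0716), -1.01 for resveratrol (SE 0.24, limma adjusted p = 0.175) and -0.62 for obese (limma adjusted p = 0.336), so no call was made, and these 3 values share the lean control arrays. The larger resveratrol difference has the larger adjusted p because the adjustment runs within each comparison.

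Loxl1, required for elastic fibre upkeep, had values of 3.22, 2.89, 3.30, 2.79 and 3.47 on rosiglitazone arrays, 2.79, 2.47, 3.11, 3.52 and 2.80 on resveratrol, 2.92, 3.37, 3.58, 3.02 and 3.45 on obese, and 3.61, 3.09, 2.996, 3.66 and 3.12 on lean control arrays. Its groups overlapped in every comparison. Loxl3 and Loxl4, with means of 2.95 and 3.05, were not called, and Loxl3 had a log2 fold change of 0.36 for rosiglitazone against obese (limma adjusted p = 0.343).

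The gelatinases and their activator were not called. Mmp2, gelatinase A, had values of 5.24, 5.31, 5.32, 5.37 and 5.29 on rosiglitazone arrays, 5.36, 5.51, 5.83, 5.69 and 5.34 on resveratrol, 5.50, 5.66, 5.44, 5.26 and 5.47 on obese, and 5.89, 5.87, 5.53, 5.34 and 5.95 on lean control arrays. The rosiglitazone arrays were close together (SD 0.049) and low, and lean control replicate 4 overlapped them. Against lean control its log2 fold change was -0.41 (SE 0.12, limma adjusted p = 0.0650), and it passed in 3 of 18 alternatives, one of which left out lean control replicate 4 (0.0223).

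Mmp14, the membrane-type enzyme that activates pro-Mmp2, had values of 3.30, 3.02, 4.36, 3.59 and 4.19 on rosiglitazone arrays, 3.35, 3.35, 3.36, 4.12 and 3.32 on resveratrol, 3.43, 2.99, 3.30, 3.23 and 3.66 on obese, and 3.64, 3.68, 3.60, 3.15 and 3.70 on lean control arrays. The high values were rosiglitazone replicates 3 and 5 and resveratrol replicate 4, and the groups overlapped. Mmp9, gelatinase B, which is made mainly by leukocytes, had values of 2.66, 2.21, 2.79, 1.97 and 2.16 on rosiglitazone arrays, 2.64, 1.75, 2.87, 2.60 and 2.49 on resveratrol, 2.58, 2.25, 2.62, 1.98 and 2.45 on obese, and 2.21, 2.004, 2.69, 2.28 and 1.75 on lean control arrays. Its values spread over the same range in all groups, and the mean of 2.35 lay below the array medians.

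Lox, Adamts5 and Plod2 split the rosiglitazone group the same way. Replicates 3, 4 and 5 held the 3 highest Lox and Adamts5 values and the 3 lowest Plod2 values of the group, while for Mmp14 the same 3 arrays were the highest of the group. For Timp4 and Timp3 the order was different, with replicate 4 lowest for both. The adipocyte markers averaged 4.81, 4.97, 5.42, 5.23 and 5.07 on rosiglitazone replicates 1 to 5, so that the same 3 arrays were also highest there. They were highest as well for the mean of the macrophage and leukocyte markers (2.94, 2.91, 3.10, 3.02 and 3.42 for replicates 1 to 5), of the mast cell and neutrophil markers (1.96, 1.97, 2.16, 2.09 and 2.33) and of the tendon markers (2.07, 2.29, 2.33, 2.30 and 2.42). The fibroblast markers (4.29, 4.83, 4.70, 4.82 and 4.56) and the endothelial and pericyte markers (5.53, 5.64, 5.55, 5.59 and 5.55) did not follow this order. Nor did those of muscle fibres, red cells, satellite cells and bone-forming cells. The split was read from these values, and the part of any cell type in it was not tested.

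**Figure D3:**
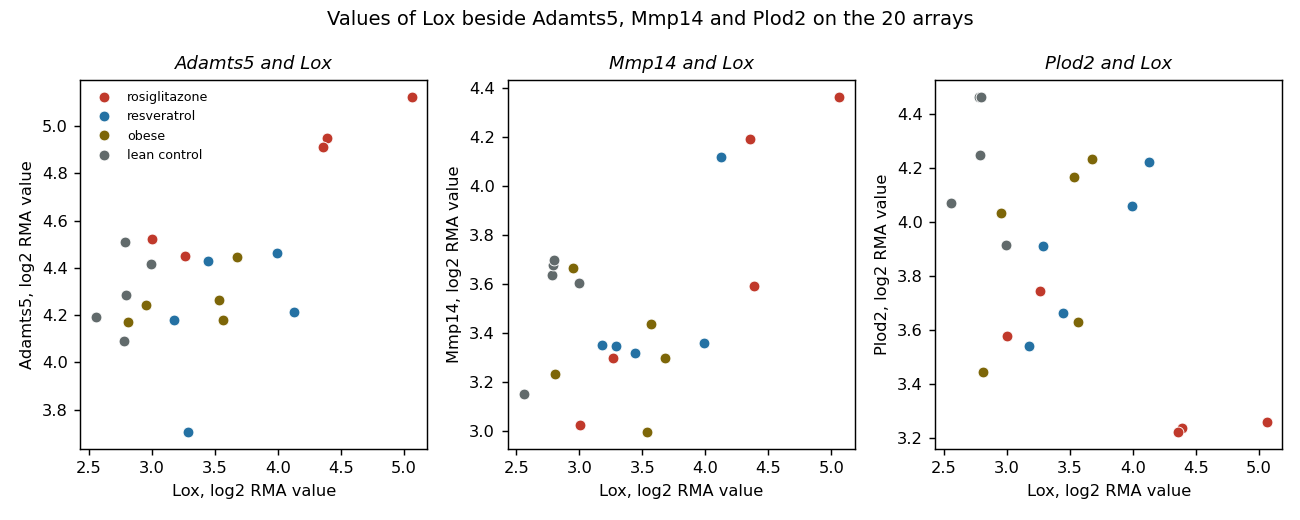
Log2 RMA values of Lox (horizontal) beside Adamts5, Mmp14 and Plod2 (vertical) on the 20 arrays, coloured by group. The 3 rosiglitazone arrays with Lox at 4.35 or above sit at the upper right for Adamts5 and the lower right for Plod2, apart from all other arrays, while for Mmp14 resveratrol replicate 4 lies near them.

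Mmp13 had the widest spread of the set and is described after its values were seen. Mmp13, an interstitial collagenase of bone and cartilage, had values of 1.26, 1.37, 1.51, 1.75 and 1.23 on rosiglitazone arrays, 1.87, 1.38, 4.52, 4.14 and 1.08 on resveratrol, 2.91, 3.95, 4.33, 1.24 and 1.47 on obese, and 1.31, 1.502, 1.71, 1.29 and 1.50007 on lean control arrays. It exceeded 2 on 0 of 5 rosiglitazone arrays, 2 of 5 resveratrol arrays, 3 of 5 obese arrays and 0 of 5 lean control arrays. The SD was 0.21 in rosiglitazone, 1.61 in resveratrol, 1.40 in obese and 0.17 in lean control. The log2 fold change was -1.35 for rosiglitazone against obese (SE 0.58, limma adjusted p = 0.295) and 1.32 for obese against lean control (SE 0.58, limma adjusted p = 0.415). Neither was called, and both share the obese arrays.

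Of the 14556 other genes, Ibsp, which encodes bone sialoprotein, tracked Mmp13 most closely within groups (r = 0.894 of the deviations from group means over 20 arrays, a description). Ibsp had values of 1.16, 1.20, 1.10, 1.47 and 1.70 on rosiglitazone arrays, 1.32, 1.62, 3.66, 3.12 and 1.61 on resveratrol, 1.99, 2.95, 4.51, 1.29 and 1.62 on obese, and 1.15, 1.68, 1.39, 1.14 and 1.43 on lean control arrays. The same 2 resveratrol arrays and 3 obese arrays were the highest for both genes. Postn, which encodes the matrix protein periostin, came next (r = 0.820). Its order was not the same, with 3.91 on obese replicate 1, below obese replicate 5 at 4.10. Scpep1 (r = 0.792), Thbs2 (0.777) and Ubl3 (0.767) followed. Of 13 genes of bone-forming cells, 7 were measured and 0 were called in any comparison. The mean of the 7, Ibsp among them, was 2.53, 2.43, 2.50, 2.61 and 2.70 on rosiglitazone arrays, 2.69, 2.59, 2.96, 3.04 and 2.60 on resveratrol, 2.74, 2.92, 3.18, 2.62 and 2.63 on obese, and 2.29, 2.76, 2.80, 2.36 and 2.62 on lean control arrays. Within the resveratrol and obese groups it was highest on the same arrays as Mmp13, and obese replicate 1 lay below 2 lean control arrays. Ibsp was picked for its likeness to Mmp13 and is part of this mean, so the shared order is not separate evidence from the other genes of the list. The osteocalcin gene Bglap, one of the 7, lay between 2.77 and 3.21 on the obese arrays. Whether cells of another tissue on those arrays had a part in the Mmp13 values was not tested.

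**Figure D4:**
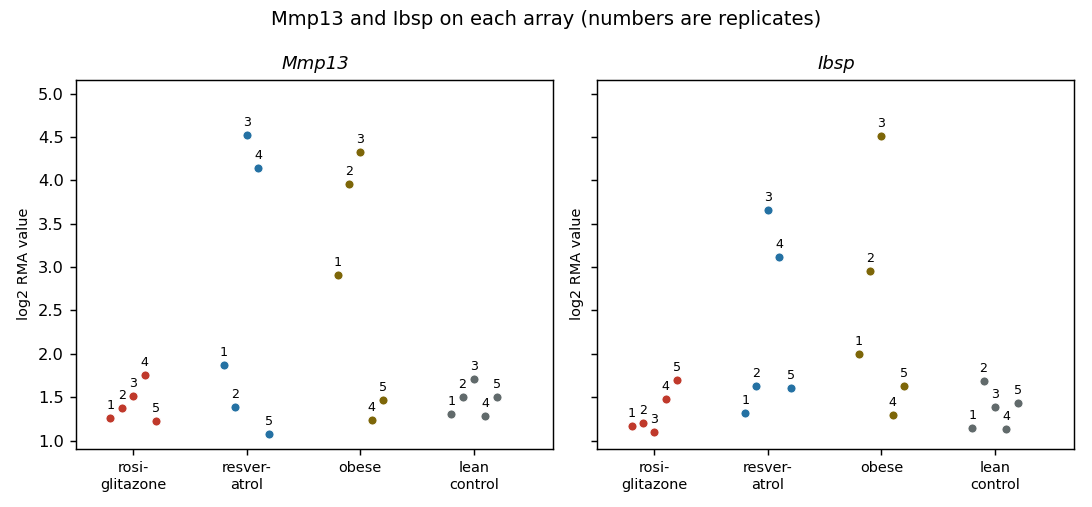
Log2 RMA values of Mmp13 (left) and Ibsp (right) on each of the 5 arrays per group, numbered by replicate. Resveratrol replicates 3 and 4 and obese replicates 1, 2 and 3 stand above the rest for both genes, and all rosiglitazone and lean control arrays lie at 1.75 or below.

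Mmp13 lies in a cluster of MMP genes on rat chromosome 8, and 8 genes of that cluster were measured. All 8 had a mean over all arrays below the array medians: 2.07 for Mmp13, 1.88 for the stromelysin Mmp3, 1.32 for the collagenase Mmp1, 1.34 for the stromelysin Mmp10, 2.13 for the neutrophil collagenase Mmp8, 1.83 for Mmp27, 1.94 for the tooth enamel protease Mmp20 and 1.83 for the matrilysin Mmp7. On obese replicates 1, 2 and 3, where Mmp13 was 2.91, 3.95 and 4.33, Mmp3 was 1.59, 2.05 and 2.06, Mmp1 was 1.13, 1.02 and 1.27 and Mmp10 was 1.45, 1.66 and 1.61. On obese replicates 4 and 5, where Mmp13 was 1.24 and 1.47, Mmp3 was 2.18 and 2.004, Mmp1 was 1.44 and 1.25 and Mmp10 was 1.28 and 1.40. All of these values of Mmp3, Mmp1 and Mmp10 lay below the array medians, where little signal can be told from background.

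The windows from 100 to 21 bases before the start of 5 cluster genes are shown because they share an AP-1 site, the element through which several MMP genes are known to respond to Fos and Jun. The sequences are from RefSeq (GRCr8, all on the plus strand). Capitals mark the AP-1 heptamer, TGACTCA or its reverse complement TGAGTCA, and the TATA box TATAAA. The AP-1 heptamer stood in these 5 of 29 promoters of the set, beside 4.05% of all promoters. TATAAA, also counted on either strand, stood in 10 of 29, beside 12.9%. The windows lie at chr8:12782729-12782808 for Mmp13, chr8:12925181-12925260 for Mmp3, chr8:12943353-12943432 for Mmp1, chr8:12974607-12974686 for Mmp10 and chr8:13132943-13133022 for Mmp7.
Mmp13: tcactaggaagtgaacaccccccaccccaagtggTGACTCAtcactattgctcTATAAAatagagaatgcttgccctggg
Mmp3: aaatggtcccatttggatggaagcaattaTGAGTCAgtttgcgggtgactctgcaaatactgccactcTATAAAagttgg
Mmp1: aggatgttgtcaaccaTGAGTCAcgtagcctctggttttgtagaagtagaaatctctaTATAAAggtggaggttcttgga
Mmp10: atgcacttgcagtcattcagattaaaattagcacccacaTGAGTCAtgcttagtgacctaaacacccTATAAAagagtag
Mmp7: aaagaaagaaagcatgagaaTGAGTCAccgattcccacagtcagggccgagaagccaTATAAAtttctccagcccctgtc

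The AP-1 heptamer began 66 bases before the start in Mmp13, 71 in Mmp3, 84 in Mmp1, 61 in Mmp10 and 80 in Mmp7. Mmp8, Mmp27 and Mmp20 held none in the same window. Mmp7 had values of 1.90, 2.04, 1.73, 1.65 and 1.79 on rosiglitazone arrays, 1.91, 2.23, 1.60, 2.18 and 2.22 on resveratrol, 1.77, 1.99, 1.68, 1.52 and 1.76 on obese, and 1.63, 1.89, 1.53, 1.69 and 1.86 on lean control arrays. Its resveratrol array with the lowest value, replicate 3, was the one with the highest Mmp13 value. The log2 fold change of Mmp7 between resveratrol and obese was 0.28 (SE 0.13, limma adjusted p = 0.659), and all values lay below the array medians.

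The remaining MMPs had means over all arrays of 2.18 for Mmp11, 5.16 for the membrane-type Mmp15, 2.58 for the membrane-type Mmp17, 2.57 for Mmp19, 2.62 for Mmp21 and 2.78 for Mmp23. None of them was called, and none had an unadjusted p under 0.05 in any comparison. Mmp8 had a log2 fold change of 0.47 between rosiglitazone and lean control (limma adjusted p = 0.195), with its highest value, 3.15, on rosiglitazone replicate 5.

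Collagens and proteoglycans, the substrates of these enzymes, were also compared. Over all genes, 3.50% were called between rosiglitazone and lean control and 1.94% between rosiglitazone and obese. Of 25 matrix substrate genes, 20 were measured, and against lean control 7 fell and 0 rose in rosiglitazone: Col1a1, Col1a2, Col3a1, Col5a2, Col6a1, Dcn and Lum, with a list median of -0.44 beside -0.0029 over all genes. Col3a1, the chain of type III collagen, averaged 6.53 in rosiglitazone and 7.88 in lean control (log2 fold change -1.35, SE 0.19, limma adjusted p = 1.30e-04). Against obese, Col3a1 fell and the basement membrane collagens Col4a1 (log2 fold change 0.65) and Col4a2 (0.62) rose. Of 12 measured genes of other collagen maturation steps, 1 fell against lean control, the procollagen C-proteinase gene Tll1 (log2 fold change -0.64). The lists were chosen with results of these arrays known, so their counts are descriptions.

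Of 24 genes of the plasminogen system and other matrix proteases, 16 were measured. The shares called over all genes were 3.50% for rosiglitazone against lean control and 2.04% against resveratrol. Against lean control, 3 rose in rosiglitazone, namely the metalloprotease gene Adam15 (log2 fold change 0.93), the lysosomal protease gene Ctsl (0.66) and the plasminogen activator gene Plat (1.21), and the fibroblast protease gene Fap fell (-1.11). Against resveratrol, Adam15 rose (1.11) and Ctsk, which encodes the collagen-cutting cathepsin K, fell (-0.70). Of 24 regulators of these genes, 14 were measured, with Ccn1 higher in rosiglitazone than in lean control (0.88) and Tgfb1, a driver of matrix synthesis, higher in rosiglitazone than in resveratrol (0.42). Between resveratrol and obese and between obese and lean control, 0 genes of these 4 lists were called by limma, with unadjusted p under 0.05 for 3 of the 20 substrates (beside 7.41% of all genes) and 6 of the 20 (beside 10.8%). Of the substrates, 16 of 20 were negative for obese against lean control, with a median of -0.30.

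Markers of other cell types differed between the groups. Over all genes, 1.94% were called between rosiglitazone and obese and 3.50% between rosiglitazone and lean control. The mean level of 12 measured adipocyte markers of 14 lay between 4.81 and 5.42 on rosiglitazone arrays, 4.37 and 4.65 on resveratrol, 4.32 and 4.49 on obese, and 4.07 and 4.47 on lean control arrays, with 5 called higher in rosiglitazone than in obese. The mean of 12 measured endothelial and pericyte markers of 16 lay between 5.53 and 5.64 on rosiglitazone arrays, 5.11 and 5.41 on resveratrol, 5.25 and 5.41 on obese, and 5.21 and 5.45 on lean control arrays, with 3 called higher against obese. Against lean control, 4 of these markers were called higher in rosiglitazone and 1, Abcc9, was called lower. The mean of 13 measured fibroblast markers of 16, which share collagen genes with the substrates, lay between 4.29 and 4.83 on rosiglitazone arrays, 4.99 and 5.34 on resveratrol, 4.72 and 5.37 on obese, and 5.28 and 5.52 on lean control arrays, with 2 called lower in rosiglitazone than in obese and 10 called lower than in lean control. For obese against lean control, 12 of the 13 were also negative, with a median of -0.38 and 0 called. The rosiglitazone arrays did not overlap the other groups for adipocyte or endothelial markers, and for fibroblast markers they did not overlap lean control or resveratrol. The part of these cell types in the values of Timp4, Adamts5, Lox and Plod2 was not tested.

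For resveratrol against obese, the size of difference the arrays allow was also read from the intervals. Between resveratrol and obese, all 40 genes had a log2 fold change under 0.5 in size, from -0.39 to 0.30. The 95% interval reached from -0.26 to 0.19 for Timp4, from -0.36 to 0.24 for Adamts5 and from -1.38 to 1.02 for Mmp13. For Timp4 and Adamts5 these intervals lie within 0.5 of 0, whereas for Mmp13 a change of 1 unit was not detectable at this spread. Intervals of other genes also passed 0.5. Among them were Lox (from -0.30 to 0.90), Loxl2 (from -0.88 to 0.11), Adamts8 (from -0.68 to 0.98) and Mmp14 (from -0.27 to 0.61).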

How the data were processed

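Red TA RNA (100 ng per rat, TRIzol and column extraction with DNase) was measured on 20 Rat Gene 2.1 ST arrays. The deposited values are log2, RMA output of the authors (background correction, normalisation between arrays, probe summary). Depth does not apply to arrays, and their number limits precision. The build is not given in the sources used here.

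Of 36685 rows, 14824 carried 1 gene symbol, 829 several and 21032 none. Rows with 1 symbol were used, the brightest for 234 genes with several rows, which left 14557 genes. All 40 members matched their RefSeq symbol by Entrez ID. Of the set always given per array, 13 of 17 genes were measured.

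A mean was fitted for each group over all 20 arrays with limma 3.58.1 (R 4.3.3) and moderated with eBayes. The two-sided p-values were adjusted by Benjamini-Hochberg over all genes within each of 6 comparisons, with calls made under 0.05. There were 16 residual degrees of freedom and 6.35 from the prior, the residual SD had a median of 0.222, and the half-width of the 95% intervals had a median of 0.286 log2 units. P-values measure the spread between rats of this experiment. The script was checked on simulated data. Promoters were matched by gene ID to RefSeq (GRCr8), of which 29 of 40 members had one. Python 3.11.15 with pandas 2.3.3 and matplotlib 3.10.9 made the tables and figures.

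Values on every array were given for 18 genes: those called, the 3 with the smallest p in each comparison, and the set. Mmp13, Ibsp, Postn, Scpep1, Thbs2, Ubl3, Bglap and the list of bone-forming cells were taken up after their values were seen. The genes, lists and tests were chosen with earlier results of these data known. The alternatives were a replicate block, trend and robust moderation, brighter genes only, rows of a gene averaged, every row tested, a fit of the compared groups alone, centring on the array median, quantile normalisation, and each array left out.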

Additional observations from a re-analysis of the deposited data

Results flagged for a closer look

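Of 160 sets of 5 arrays (40 genes in 4 groups), 6 held an array that stood apart from its own group by more than the 95% critical value of a Dixon test, where chance alone gives about 8. Mmp14 was 4.12 on resveratrol replicate 4, with the nearest array of the group at 3.36, and 3.15 on lean control replicate 4, with the nearest at 3.60. Adamts15 was 3.10 on obese replicate 1, with the nearest at 2.57, and Mmp17 was 2.26 on the same array, with the nearest at 2.73. Mmp1 was 1.75 on resveratrol replicate 2, with the nearest at 1.36, and Mmp23 was 2.38 on rosiglitazone replicate 1, with the nearest at 2.67. None of these genes was called in any comparison.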

How the results depend on the processing

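Between rosiglitazone and obese, where 0 genes of the set were called, 1 was called with a replicate block (Adamts5), 3 with trend and robust moderation (Adamts5, Timp3 and Timp4), 3 with brighter genes only, where fewer genes were tested (19 of the set), and 1 with median centring. Leaving out single arrays gave 0 to 2. Between rosiglitazone and resveratrol, where 2 were called, 1 remained with the replicate block (Adamts5), 0 with all rows tested, 0 with only the groups compared and 1 with median centring, and leaving out single arrays gave 0 to 2. Between rosiglitazone and lean control, where 3 were called, 5 were called with the replicate block, 6 with trend and robust moderation, 6 with brighter genes only and 5 with quantile normalisation, and leaving out single arrays gave 3 to 5. The cause was not tested. The other 3 comparisons gave 0 under every alternative run, arrays left out included. Timp4 between rosiglitazone and resveratrol lost its call with the replicate block (limma adjusted p = 0.0764), all rows (0.0772), only the groups compared (0.109) and median centring (0.0542). Over the single genes, no direction changed, 400 values kept their side of the threshold, 23 moved past it and 22 fell short of it. Same-numbered arrays of 2 groups correlated between -0.289 and 0.119 in their deviations, so a shared number does not pair them. Dim genes have little signal over background, which limits the 13 genes below the array medians.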
